A study of Mus musculus with 6 samples.

Results

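The collagen genes were examined in left ventricular tissue of mice that make human sickle haemoglobin and of control mice whose human haemoglobin does not sickle. They were taken as every row of the array table with exactly 1 gene symbol of the form Col, a type number, a and a chain number. The rule found 45 rows for 44 genes, among 21506 genes with 1 symbol. Col5a1 had 2 rows, and the row with the higher mean signal over the 6 arrays stood for it. The 44 genes were split into 11 fibrillar collagens, 8 basement membrane collagens (the type IV chains with Col15a1 and Col18a1) and 25 other collagens.

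Collagens are matrix proteins whose 3 chains wind into a triple helix, and their genes each encode 1 chain. Fibrillar types I and III form the load-bearing fibres between heart muscle cells, types V and XI set fibre width, and the fibril-associated types XII, XIV and XVI sit on fibre surfaces. Type IV forms the sheet around each muscle cell and capillary, type VI forms beaded filaments beside it, and type VIII forms networks in vessel walls. In heart, interstitial fibroblasts make most of the fibrillar chains, and deposition of types I and III is the hallmark of fibrosis.

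RNA of 6 male mice was measured with 1 array for each animal (Affymetrix Mouse Gene 2.0 ST), and the values are log2 expression levels after RMA. The 3 sickle mice were homozygous for Hbbtm2(HBG1,HBB*)Tow, which carries the human gamma gene and the sickle beta gene, together with Hbatm1(HBA)Tow, the human alpha gene. The 3 control mice were homozygous for Hbatm1(HBA)Tow and Hbbtm3(HBG1,HBB)Tow, whose beta gene is not the sickle one, so both groups have human haemoglobin in place of mouse haemoglobin. Both stocks were on a mixed B6;129 background, and the labels put the experiments at 10 to 14 weeks of age. The tissue protocol counts 3 mice per group, and no scan date or batch is named.

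Sickle replicate 3 stood apart from the other arrays. Its score on the first principal component, which held 43.9% of the variance, was 43.3, against -15.1 to -2.31 for the other 5 arrays. In that array 340 genes (1.58% of those tested) were at least 2-fold above the mean of sickle replicates 1 and 2. The array medians nevertheless lay between 5.50 and 5.54. The main collagen results are therefore given over 6 arrays and again without sickle replicate 3. The tissue carried the markers of heart muscle, with all 10 cardiomyocyte markers at 8.57 or above on every array. In bulk tissue a difference in the number of cells of a type and a difference in RNA per cell cannot be told apart.

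Over 6 arrays no collagen gene passed an adjusted p of 0.05 (0 of 44, limma with Benjamini-Hochberg adjustment over all genes), where 0.181% of all genes did. At an unadjusted p of 0.05, 2 members were higher in sickle, Col14a1 and Col4a4, and 0 were lower. That is 4.55% of the members against 4.3% of all genes for the higher direction, a share near that of all genes, and 0% against 4.38% for the lower. The median difference of the 44 genes was 0.14 on the log2 scale, beside -0.01 over all genes tested. A difference above 0 was found for 34 of 44 members (77.3%), against 48.4% of all genes, and the 3 sickle values lay above the 3 control values for 7 members (15.9%, against 7.61% of all genes). The sickle values lay below all control values for 1 member, Col6a6 (2.27%, against 8.36%).

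That shift differed between the sickle hearts. The median of the 44 genes was 0.02, 0.13 and 0.19 above the control mean in sickle replicates 1, 2 and 3. On control replicates 1, 2 and 3 it was -0.01, -0.02 and 0.02, so sickle replicate 1 was level with a control array. In the sickle arrays 24, 33 and 30 of 44 members lay above the control mean. The counts over all 21506 genes were 10653, 10851 and 9812. The largest gaps, however, lay in sickle replicate 3. In sickle replicate 3, 10 of 44 collagen genes (22.7%) were at least 2-fold above the mean of sickle replicates 1 and 2, against 1.58% of all genes. The 10 were Col1a1, Col1a2, Col3a1, Col5a1, Col5a2, Col14a1, Col12a1, Col8a1, Col6a1 and Col6a2. None (0 of 44) was 2-fold below that mean, against 0.163% of all genes. That array was the highest of the 6 for 22 of 44 members (50%), against 23.8% of all genes. Without that array the median difference was 0.07, beside 0.00 over all genes, and 29 of 44 members were above 0 (65.9%, against 50.2%). The adjusted test again called 0 members (0.0976% of all genes were called), with 4 higher at an unadjusted p of 0.05 (9.09%, against 4.83%) and 1 lower (2.27%, against 4.37%). Sickle values lay above all control values for 10 members (22.7%, against 13.5% of all genes) and below them for 3 (6.82%, against 13.4%). With 2 against 3 arrays such a separation is more frequent over all genes than with 3 against 3.

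**Figure D1:**
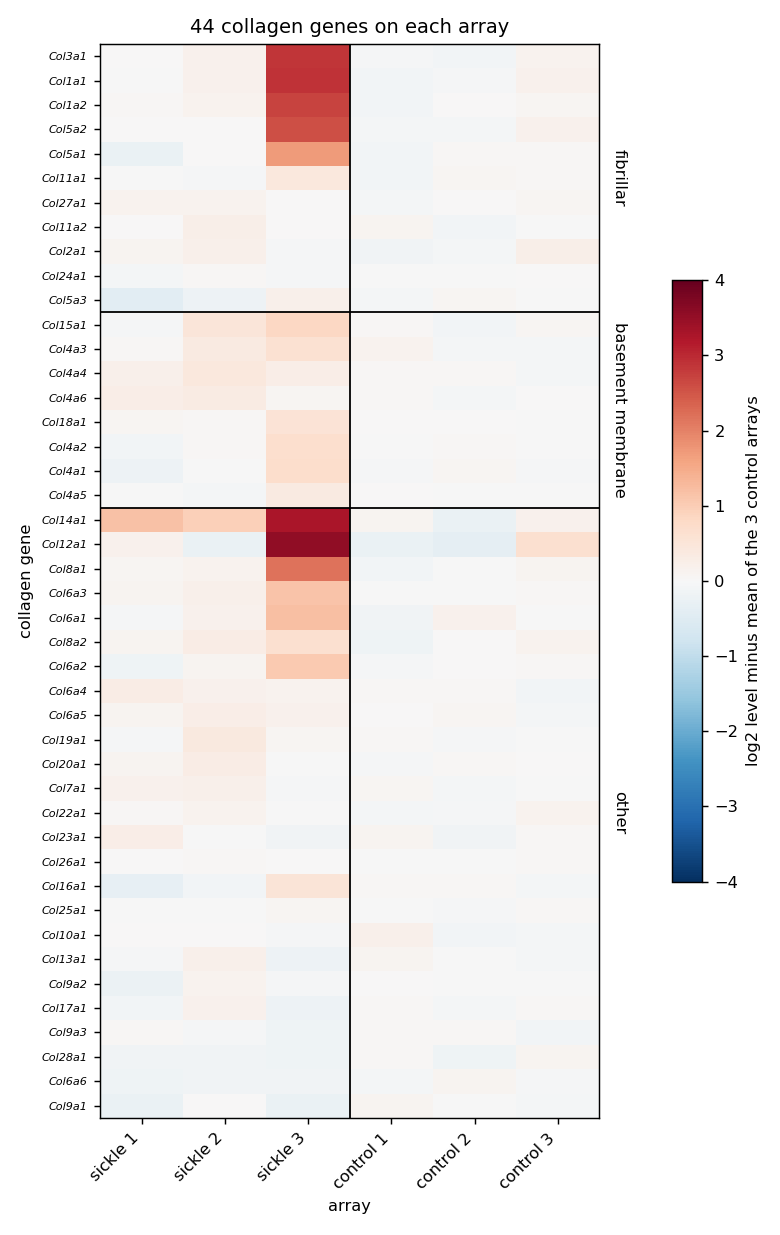
Log2 level of each of the 44 collagen genes (down the page, by class and by difference) on each array (across), shown as the distance from the mean of the 3 control arrays. Sickle replicate 3 is red for the major fibrillar chains, Col5a1, Col5a2, Col12a1, Col14a1 and Col8a1, and sickle replicates 1 and 2 are clearly red for Col14a1 and close to white for most others.

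The major fibrillar chains had a wide gap between the sickle hearts. Col1a1, which encodes the alpha 1 chain of type I collagen, had 8.56, 8.74 and 11.47 in sickle replicates 1, 2 and 3, against 8.47, 8.53 and 8.75 in control. Col1a2, its alpha 2 partner in the same trimer, had 8.38, 8.48 and 11.04 in sickle, against 8.24, 8.37 and 8.43 in control. Col3a1, the chain of type III collagen, had 8.82, 8.97 and 11.63 in sickle, against 8.75, 8.69 and 8.92 in control. In all 3 genes sickle replicates 1 and 2 lay inside or just above the control range, and sickle replicate 3 lay far above it.

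The sickle replicate 3 level was 7.05-fold that of the other 2 sickle arrays for Col1a1, 6.68-fold for Col3a1 and 6.12-fold for Col1a2. These folds compare 1 array with 2 and have no test. The 3 chains thus stood near a common ratio in that heart. The group difference was 1.02 ± 0.67 for Col3a1, 1.01 ± 0.69 for Col1a1 and 0.96 ± 0.64 for Col1a2 (log2, SE, 3 arrays per group), and limma gave an adjusted p from 0.682 to 0.690. Without sickle replicate 3 the differences were 0.11 (95% interval -0.16 to 0.37), 0.07 (-0.22 to 0.36) and 0.09 (-0.15 to 0.32), in the same gene order. A 2-fold difference between the remaining 2 sickle hearts and the controls lies outside each of these intervals.

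The minor fibrillar chains were not uniform. Col5a2, the alpha 2 chain of type V collagen, had 6.69, 6.68 and 9.25 in sickle, against 6.58, 6.58 and 6.84 in control, and was 5.90-fold above its group mates in sickle replicate 3. Col5a1, the alpha 1 chain, had 6.96, 7.25 and 8.92 in sickle, against 7.12, 7.27 and 7.29 in control, a 3.53-fold gap within the sickle group. Col5a2 lies beside Col3a1 in the RefSeq gene table, and both had their highest value in sickle replicate 3, as had 22 of 44 members. Not all neighbours shared a highest array. Col4a3 was highest in sickle replicate 3 and its neighbour Col4a4 in sickle replicate 2. The second, dimmer row of Col5a1 had 4.84, 4.94 and 4.78 in sickle, against 4.83, 4.56 and 5.05 in control, so it did not show the gap of the row used.

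Col5a3, the alpha 3 chain of type V, was low in the other 2 sickle hearts. It had 6.69, 6.90 and 7.30 in sickle, against 7.04, 7.19 and 7.10 in control. Sickle replicates 1 and 2 were below every control array, while replicate 3 was above every one. The difference was -0.15 ± 0.16 over 6 arrays (limma adjusted p = 0.804) and -0.31 without sickle replicate 3 (95% interval -0.57 to -0.06, limma adjusted p = 0.468). It was the 1 member at an unadjusted p under 0.05 in the lower direction in that fit.

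The remaining fibrillar genes were close between groups. Col27a1, which encodes a long fibrillar chain of cartilage, had 7.04, 7.02 and 6.89 in sickle, against 6.80, 6.91 and 6.95 in control. Col2a1, the main chain of cartilage, had 6.28, 6.38 and 6.11 in sickle, against 6.02, 6.08 and 6.41 in control. Neither had its highest value in sickle replicate 3. Col11a1, Col11a2 and Col24a1 differed by -0.02 to 0.13 over 6 arrays. Of the 11 fibrillar genes, 5 had sickle replicate 3 at least 2-fold above its mates, and in the other 6 the gap lay within 0.51 on the log2 scale. The fibrillar median was 0.02, 0.13 and 0.42 above the control mean in sickle replicates 1, 2 and 3, while that of Col1a1, Col1a2 and Col3a1 alone was 0.03, 0.16 and 2.85. It was between -0.10 and 0.13 for the same 3 genes on the control arrays.

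**Figure D2:**
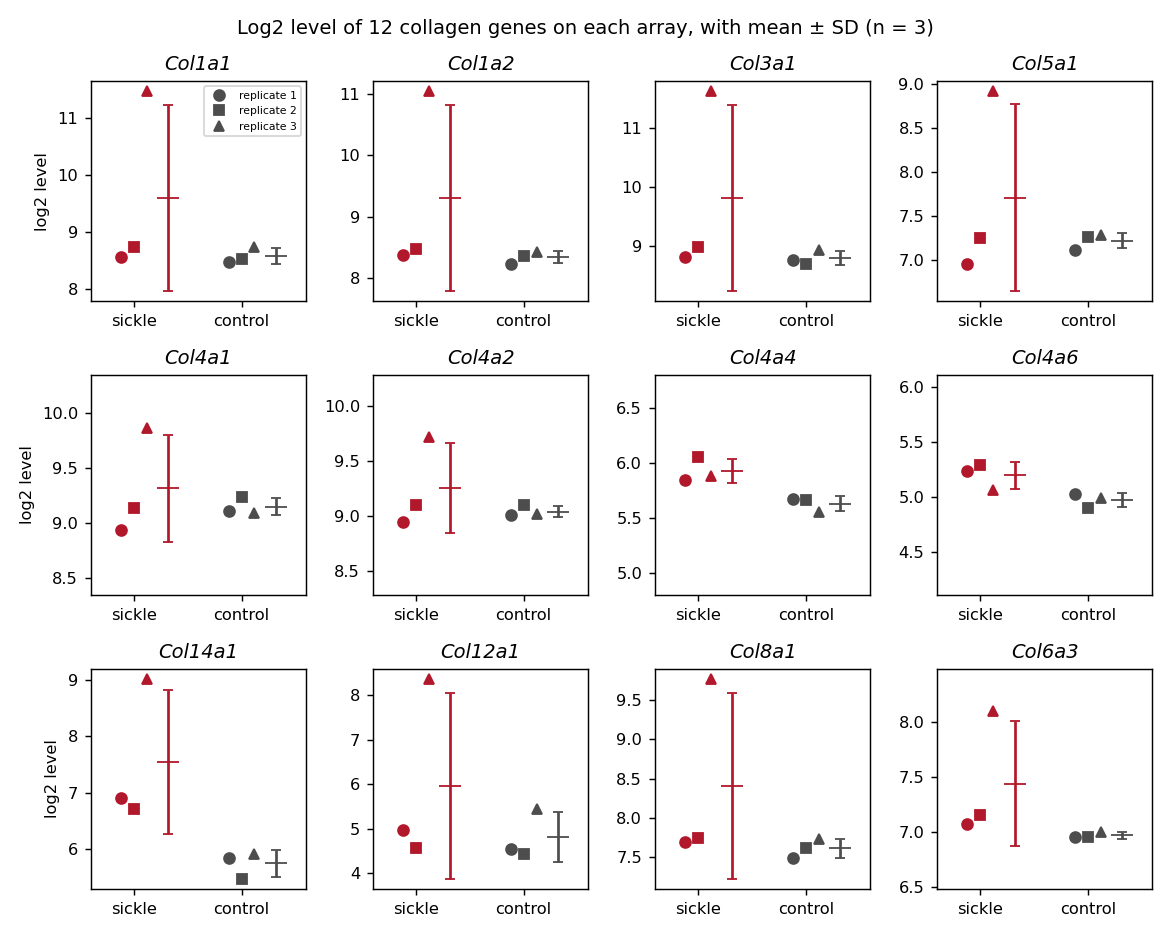
Log2 level (vertical axes) of 12 collagen genes on each of the 3 sickle and 3 control arrays, with replicates 1, 2 and 3 as circle, square and triangle and the mean ± SD (n = 3) beside them. The triangle of sickle replicate 3 is far above the other points for the 4 fibrillar genes, Col14a1, Col12a1 and Col8a1, and all 3 sickle points are above control for Col14a1, Col6a3, Col4a4 and Col4a6.

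The bases before the annotated start are shown for 3 genes that stood high together in sickle replicate 3. They come from RefSeq windows on assembly GRCm38.p6. The set used left out the windows of 1 chromosome. It held 35 of the 44 genes, and no window for Col1a1, Col5a2, Col12a1 and Col14a1, which also stood high in that array. The windows shown are chr6:4505468-4505617 on the plus strand for Col1a2, chr1:45311388-45311537 on the plus strand for Col3a1 and chr16:57754738-57754887 on the minus strand for Col8a1, 150 bases each. Capitals mark matches on either strand to the CCAAT box (CCAAT), the TATA box (TATAAA) and the GC box (GGGCGG).
Col1a2: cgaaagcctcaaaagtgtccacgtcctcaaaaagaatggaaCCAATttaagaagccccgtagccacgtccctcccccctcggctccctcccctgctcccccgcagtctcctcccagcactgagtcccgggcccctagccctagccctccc
Col3a1: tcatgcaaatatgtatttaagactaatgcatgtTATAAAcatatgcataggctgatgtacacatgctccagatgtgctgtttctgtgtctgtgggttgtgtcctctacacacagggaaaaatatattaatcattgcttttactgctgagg
Col8a1: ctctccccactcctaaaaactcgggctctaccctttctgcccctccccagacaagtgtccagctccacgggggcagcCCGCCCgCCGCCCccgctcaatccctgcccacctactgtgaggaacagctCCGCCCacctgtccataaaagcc
The 3 windows share no one of these motifs: Col1a2 has 1 CCAAT box, Col3a1 has 1 TATA box and Col8a1 has 3 GC boxes in the bases shown. The TATA match of Col3a1 ends 112 bases before the start. Over 250 bases, Col1a2 has 2 GC boxes, Col8a1 has 4 and Col3a1 has 0. In the 250 bases before the start, a CCAAT box was found in 34.2% of the 38 collagen windows, against 33.8% of all 32851 windows in that set. The TATA box was found in 13.2% of the collagen windows, against 12.4% of all windows. The GC box was found in 57.9% of the collagen windows, against 32.7% of all windows. These matches are descriptions of letters and are not evidence of binding.

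The basement membrane collagens all had a difference above 0 over 6 arrays (8 of 8), with a median of 0.23, and 5 of 8 without sickle replicate 3, with a median of 0.13. The shares of all genes above 0 were 48.4% and 50.2%. Their gap in sickle replicate 3 was smaller than that of the major fibrillar chains, between 0.87-fold and 1.77-fold of its group mates, and 0 of 8 reached 2-fold. None of the 8 passed the adjusted test in either fit. The class median was 0.01, 0.19 and 0.58 above the control mean in sickle replicates 1, 2 and 3.

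Col4a1 and Col4a2 encode the alpha 1 and alpha 2 chains that form the common type IV trimer of heart and vessel basement membranes. Col4a1 had 8.94, 9.14 and 9.86 in sickle, against 9.11, 9.24 and 9.09 in control. Col4a2 had 8.95, 9.10 and 9.72 in sickle, against 9.02, 9.10 and 9.02 in control. Sickle replicate 3 was above the control range by a similar distance in both genes, which neighbour each other in the RefSeq table, and the other 2 sickle hearts were inside or below that range at this rounding. The differences were 0.17 ± 0.22 and 0.21 ± 0.19 over 6 arrays, and -0.11 (95% interval -0.36 to 0.15) and -0.02 (-0.25 to 0.21) without that array.

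Col4a4, whose chain pairs with those of Col4a3 and Col4a5 in specialised basement membranes such as that of the kidney filter, had a different pattern. It had 5.85, 6.05 and 5.88 in sickle, against 5.67, 5.67 and 5.55 in control. All 3 sickle hearts were above all 3 control hearts, and sickle replicate 3 was not the highest of them. The difference was 0.30 ± 0.10, a 1.23-fold ratio (95% interval 0.07 to 0.53, limma adjusted p = 0.494), and 0.32 without sickle replicate 3 (adjusted p = 0.459). Its level ranked at the 51.2 percentile of all genes, and the files give no detection call.

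Col4a6, which encodes the chain of smooth muscle and epithelial basement membranes, had 5.24, 5.29 and 5.06 in sickle, against 5.02, 4.90 and 4.99 in control. Its 3 sickle values also lay above the control values, with a difference of 0.23 ± 0.10 over 6 arrays (limma adjusted p = 0.583) and 0.30 without sickle replicate 3 (95% interval 0.08 to 0.52, adjusted p = 0.439). Col4a3 had 5.49, 5.83 and 6.06 in sickle, against 5.61, 5.37 and 5.39 in control, so sickle replicate 1 was inside the control range. Col4a5 had 7.00, 6.93 and 7.37 in sickle, against 7.04, 7.00 and 7.00 in control, with only replicate 3 above control. The chains of 1 trimer, Col4a3, Col4a4 and Col4a5, thus had differences of 0.33, 0.30 and 0.09 over 6 arrays, and of 0.20, 0.32 and -0.05 without sickle replicate 3.

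Col15a1 and Col18a1 encode the collagens that bridge basement membrane and interstitial fibres, and the Col18a1 chain is cleaved to endostatin, an inhibitor of vessel growth. Col15a1 had 7.47, 8.00 and 8.35 in sickle, against 7.58, 7.40 and 7.59 in control, with 2 of 3 sickle hearts above control. Its difference was 0.42 ± 0.21 (limma adjusted p = 0.606) and 0.21 without sickle replicate 3 (95% interval -0.18 to 0.61). Col18a1 was above control in all 3 sickle hearts, by 0.23 over 6 arrays and 0.06 without replicate 3 (adjusted p = 0.682 and 0.877).

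Among the other collagens, Col14a1 was the member with the largest difference. It encodes a fibril-associated collagen, also called undulin, that binds the surface of type I fibres. Col14a1 had 6.91, 6.71 and 9.02 in sickle, against 5.86, 5.48 and 5.92 in control. All 3 sickle hearts were above all controls, and replicate 3 was 4.61-fold above its group mates. The mean was 7.55 ± 1.28 in sickle and 5.75 ± 0.24 in control (SD, n = 3 each).

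The Col14a1 difference was 1.79 ± 0.55, a 3.47-fold ratio (95% interval 0.51 to 3.07, limma adjusted p = 0.459). Without sickle replicate 3 it was 1.06 ± 0.15, a 2.08-fold ratio (95% interval 0.69 to 1.43, limma adjusted p = 0.134). It was the 1 collagen gene at least 2-fold higher in that fit (2.27% of members, against 0.186% of all genes), where 4 members were at least 2-fold higher over 6 arrays (9.09%, against 0.302%). Over all alternatives its difference ran from 1.06 to 2.21 and its adjusted p from 0.134 to 0.806, so it kept its direction and did not pass in any of them.

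Col12a1, like Col14a1 a fibril surface collagen, was high on 1 array. It had 4.97, 4.56 and 8.36 in sickle, against 4.54, 4.44 and 5.45 in control. Sickle replicate 3 was 12.1-fold above its group mates, and the next highest array was control replicate 3. The difference was 1.16 ± 0.91 over 6 arrays (limma adjusted p = 0.727), and -0.04 without sickle replicate 3 (95% interval -0.78 to 0.69). Control replicate 3 also carried the atrial muscle gene Sln at 8.08, against 3.10 to 3.33 in sickle and 3.16 and 3.36 in the other controls. The 5 atrial markers summed to a linear signal of 318, 312 and 294 in sickle, against 341, 394 and 882 in control, and the part of atrial tissue in the Col12a1 value of that array was not tested.

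Col16a1, another fibril-associated collagen, had 5.40, 5.60 and 6.24 in sickle, against 5.76, 5.77 and 5.64 in control. Sickle replicates 1 and 2 were below every control and replicate 3 above every one, giving 0.02 ± 0.20 over 6 arrays and -0.23 without replicate 3 (95% interval -0.48 to 0.03). The rest of the fibril-associated group (Col9a1, Col9a2, Col9a3, Col19a1, Col20a1 and Col22a1) differed by -0.18 to 0.14.

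The network-forming collagen VIII of vessel walls is made from Col8a1 and Col8a2. Col8a1 had 7.70, 7.75 and 9.78 in sickle, against 7.49, 7.61 and 7.74 in control, and was 4.15-fold above its group mates in sickle replicate 3. Its difference was 0.79 ± 0.51 over 6 arrays (limma adjusted p = 0.673) and 0.11 without that array (95% interval -0.14 to 0.36). Col8a2 had 4.82, 5.03 and 5.35 in sickle, against 4.55, 4.74 and 4.85 in control, a 1.34-fold gap within the sickle group. The 2 chains of type VIII thus differed in their measured gap, and they also differed in signal. Col8a1 ranked at the 82.6 percentile of array signal over all genes and Col8a2 at the 36.7 percentile.

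Type VI collagen, the beaded filament around muscle cells, has its usual trimer from Col6a1, Col6a2 and Col6a3. Col6a1 had 9.16, 9.37 and 10.39 in sickle, against 9.05, 9.35 and 9.18 in control. Col6a2 had 7.57, 7.86 and 8.80 in sickle, against 7.70, 7.76 and 7.82 in control. Col6a3 had 7.07, 7.16 and 8.10 in sickle, against 6.95, 6.96 and 7.01 in control, with all 3 sickle hearts above control. The 3 chains were 2.19-fold, 2.12-fold and 1.98-fold above the group mates in sickle replicate 3, close to each other and below the 6.12-fold to 7.05-fold gaps of types I and III. Without that array the differences were 0.07, -0.04 and 0.14.

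The later-described type VI chains did not follow them. Col6a4 had 4.60, 4.48 and 4.45 in sickle, against 4.34, 4.34 and 4.19 in control, and all 3 sickle hearts were above control without replicate 3 being the highest. Its difference was 0.22 ± 0.10 over 6 arrays and 0.25 without sickle replicate 3 (limma adjusted p = 0.588 and 0.536). Col6a5 differed by 0.18, also without overlap. Col6a6 had 6.47, 6.50 and 6.50 in sickle, against 6.58, 6.75 and 6.61 in control, a difference of -0.15 ± 0.09 (adjusted p = 0.655). Col6a4 and Col6a5 ranked at the 27.9 and 25.2 percentile of array signal over all genes.

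The remaining genes were Col7a1 (the anchoring fibril), Col10a1 (of growth cartilage), the transmembrane Col13a1, Col17a1, Col23a1 and Col25a1, and the secreted Col26a1 and Col28a1. They differed by -0.15 to 0.11, and sickle replicate 3 was between 0.816-fold and 1.05-fold of its group mates in each. Together the 25 other collagens had a median of 0.05 over 6 arrays and 0.07 without sickle replicate 3.

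**Figure D3:**
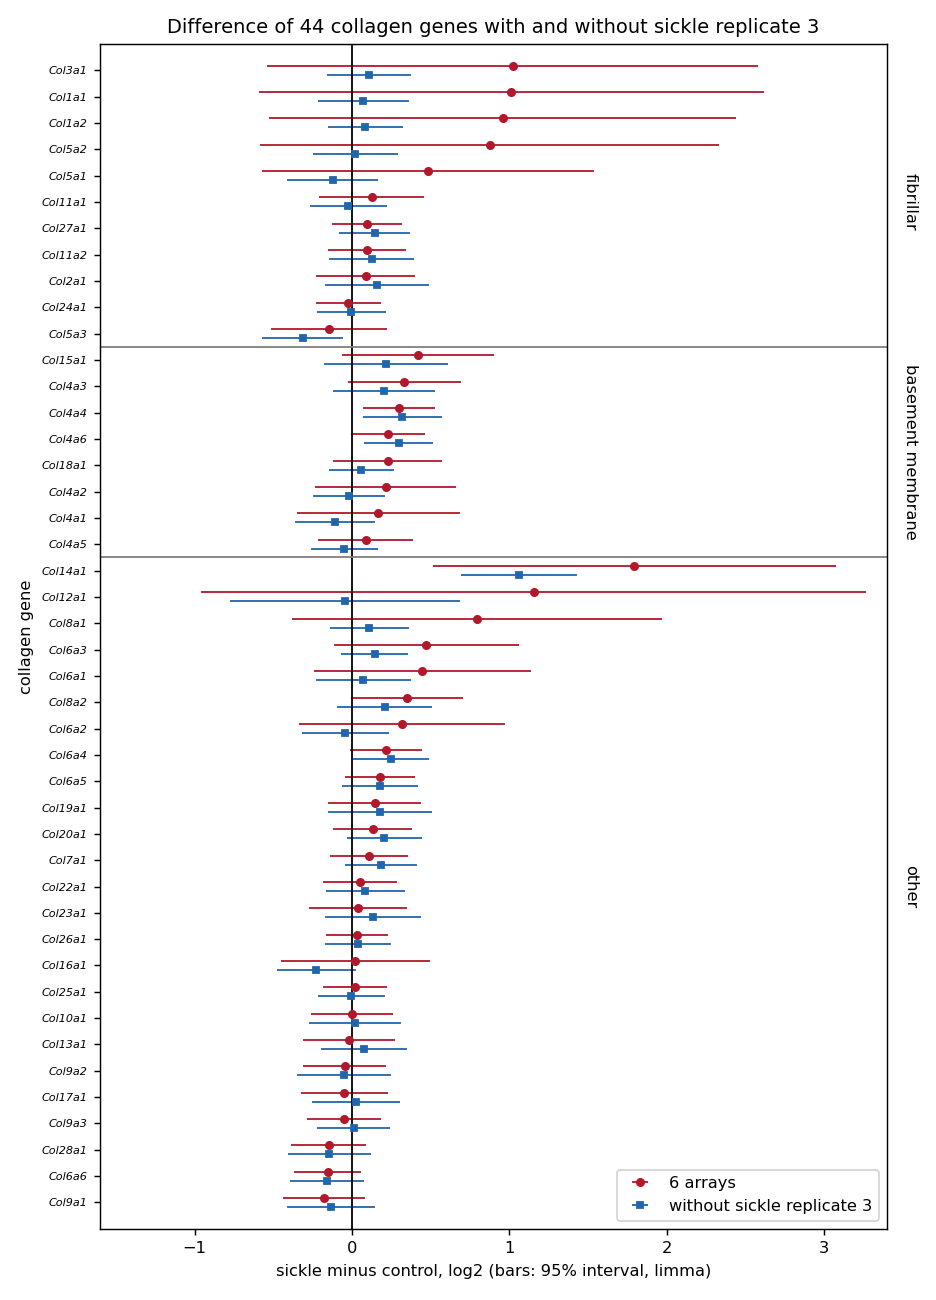
Sickle minus control difference on the log2 scale (horizontal axis) for the 44 collagen genes, over 6 arrays (circles) and without sickle replicate 3 (squares), with 95% intervals from limma. The long intervals over 6 arrays belong to the genes with a gap in sickle replicate 3, and without that array Col14a1 lies apart at 1.06 while the others lie between -0.31 and 0.32.

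The precision of the comparison changed with that array. The SD within the sickle group exceeded that within control for 35 of 44 genes, with a median of 0.22 in sickle and 0.09 in control. The 95% interval excluded a 2-fold difference in either direction for 34 of 44 genes over 6 arrays and for 43 of 44 without sickle replicate 3. It excluded 1.5-fold for 41 of 44 in the second fit, the exceptions being Col14a1, Col12a1 and Col15a1. The 2-fold bound was excluded for all 11 fibrillar and all 8 basement membrane genes in that fit. Over 6 arrays it was excluded for 6 of 11 fibrillar and 8 of 8 basement membrane genes. The second fit leaves out the array with the largest gaps. Its intervals therefore describe the 2 remaining sickle hearts and do not hold the spread among all 3.

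The enzymes that make collagen were compared from a list of 28, of which 25 were measured. Of these 0 passed the adjusted test, 22 had a difference above 0 and the median was 0.16 over 6 arrays. Without sickle replicate 3 it was 0.01, with 14 above 0 and 0 called. The shares of all genes above 0 were 48.4% and 50.2% in these fits. Sickle replicate 3 was the highest array for 19 of these 25 genes, against 23.8% of all genes. It was at least 2-fold above its group mates for 4 of them, against 1.58% of all genes. The summed linear signal of the list was 6166, 6053 and 10613 in sickle, against 5812 to 6395 in control. Pcolce2, an enhancer of procollagen cleavage, had the smallest p, at 8.45, 8.44 and 8.95 in sickle, against 8.21, 8.17 and 8.38 in control. Its difference was 0.36 ± 0.16 (limma adjusted p = 0.578), and 0.19 without sickle replicate 3. The procollagen proteinases Bmp1 and Tll1 differed by 0.46 and 0.35 over 6 arrays, and by 0.15 and 0.22 without that array.

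Of 17 measured non-collagen matrix genes, 12 were at least 2-fold above the group mates in sickle replicate 3, against 1.58% of all genes. Postn, a matricellular protein of activated fibroblasts, had 9.28, 9.64 and 12.40 in sickle, against 8.25, 8.49 and 9.02 in control. Like Col14a1, it was above every control in all 3 sickle hearts, as were 7 of the 17, against 7.61% of all genes. Its difference was 1.85 ± 0.74 over 6 arrays (limma adjusted p = 0.564). Lum, a proteoglycan that spaces collagen fibrils, differed by 0.79 ± 0.28, and Sparc, a collagen-binding glycoprotein, by 0.49 ± 0.21 (limma adjusted p = 0.522 and 0.574). Without sickle replicate 3 these differences were 0.42 and 0.23, and that of Postn was 0.87. Over the list 0 genes passed, all 17 were above 0 with a median of 0.57, and 11 were above 0 without sickle replicate 3 with a median of 0.19. The shares of all genes above 0 were 48.4% and 50.2%.

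The partners of type IV collagen were a list of 11 laminin, nidogen and proteoglycan genes and Sparc, and 0 of them were 2-fold above the group mates in that array. Of the 11, 0 passed the adjusted test, 9 were above 0 with a median of 0.28, and 8 were above 0 without sickle replicate 3 with a median of 0.16. Of all genes, 48.4% were above 0 over 6 arrays and 50.2% without that array. Hspg2, the perlecan gene, had 10.41, 10.54 and 10.69 in sickle, against 10.19, 10.25 and 10.14 in control. Lamb1, the laminin beta 1 chain, had 9.53, 9.63 and 9.89 in sickle, against 9.27, 9.35 and 9.19 in control. In both genes and in Nid2 the groups did not overlap, as in 5 of the 11, against 7.61% of all genes. The differences of Hspg2, Lamb1 and Nid2 were 0.36, 0.41 and 0.43 (limma adjusted p = 0.437 to 0.439). Without sickle replicate 3 they were 0.29, 0.31 and 0.34. Of 9 measured collagen receptor genes, 0 passed, 8 were above 0 over 6 arrays with a median of 0.21, and 7 were above 0 without sickle replicate 3 with a median of 0.12. The collagen-binding integrin Itga2 had the smallest p of them, with a difference of 0.44 over 6 arrays (limma adjusted p = 0.604) and 0.19 without that array. Sickle replicate 3 was the highest array for 7 of the 9 receptor genes and at least 2-fold above its mates for 3. The shares over all genes were 23.8% and 1.58%.

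Markers of other cells were high together with the collagens in sickle replicate 3. All 11 macrophage and monocyte markers had their highest value there, and their summed linear signal was 2576, 2904 and 6094 in sickle replicates 1, 2 and 3, against 2296 to 2636 in control. All 7 fibroblast markers, Lum and Dcn of the matrix list among them, were also highest there, with a summed signal of 7021, 6732 and 11003 in sickle, against 6597 to 7323 in control. The summed signal of the 44 collagens was 5366, 5961 and 16803 in sickle, against 5290 to 5622 in control. In sickle replicate 3 that sum was 3.07 times the control mean. The ratio was 1.58 for the fibroblast markers and 2.48 for the macrophage markers. Such sums follow the brightest genes, and Col1a1, Col1a2 and Col3a1 gave 8125 of the 16803. The median log2 distance per gene from the control mean in that array was 0.186 for the 44 collagens. It was 1.001 for the fibroblast markers and 1.381 for the macrophage markers, so the collagens were the lowest by this measure.

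The other marker lists differed in that array. The summed signal of 8 smooth muscle and pericyte markers was 8220, 8725 and 10156 in sickle, against 7848 to 8211 in control, and that of 8 endothelial markers was 8712, 8504 and 8680, against 7836 to 8521. The 10 cardiomyocyte markers summed to 76756, 74881 and 70016 in sickle, against 75279 to 76116 in control, and all 10 were below the control mean in sickle replicate 3. Of the cartilage markers 7 were measured, with sums of 194, 168 and 329 in sickle, against 174 to 263 in control. The 6 skeletal muscle markers summed to 1834, 1461 and 2862 in sickle, against 1222 to 1832 in control, so that sickle replicate 3 was 1.78 times the control mean for this list, above the ratio for the fibroblast markers. Of the skeletal list, Acta1, an actin that heart muscle also makes, was by far the brightest, with 10.69, 10.32 and 11.39 in sickle, against 10.02, 10.69 and 10.62 in control. The 6 epicardial markers summed to 278, 279 and 302 in sickle, against 228 to 275 in control, the 3 Schwann cell markers to 94, 108 and 90, against 94 to 122, and the 5 adipocyte markers to 154, 123 and 125, against 124 to 152. No marker is at 0 in these values, which are logarithms of a signal that includes background. Red-cell markers were high in all 3 sickle hearts (2641, 4121 and 3895, against 732 to 826 in control). The part of any of these cell types in the collagen values was not tested.

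**Figure D4:**
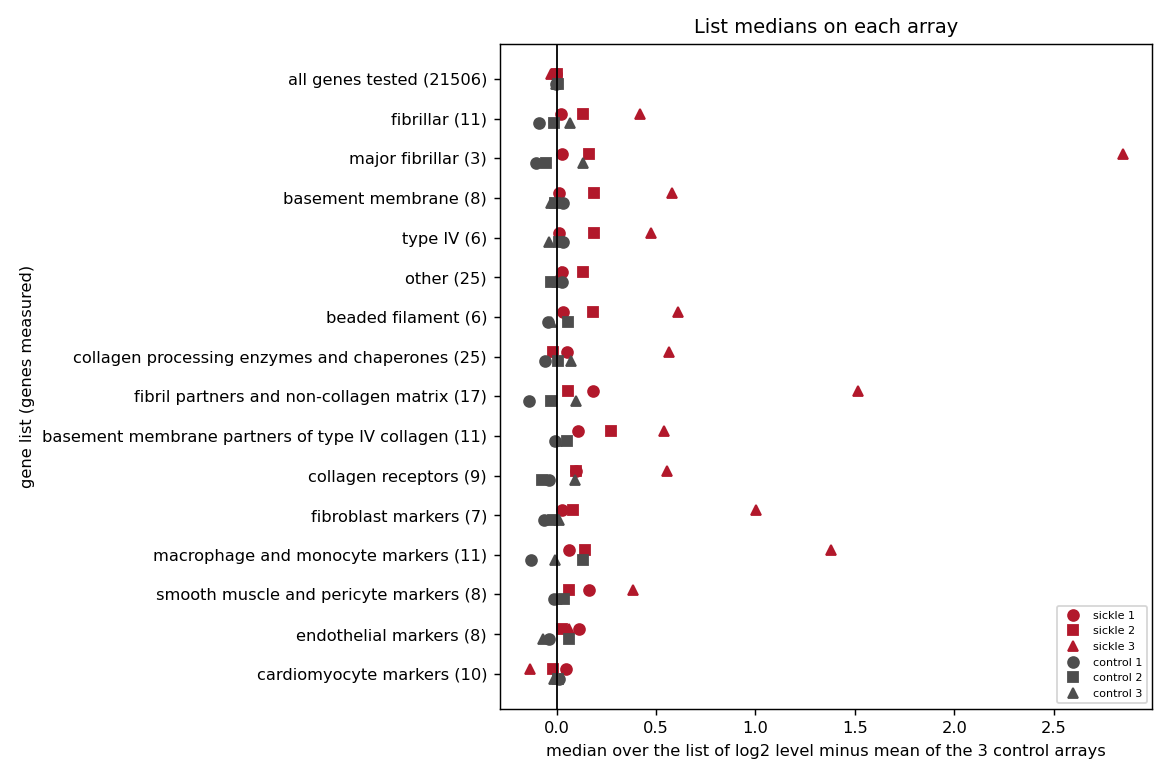
Median over each gene list of the log2 level minus the mean of the 3 control arrays (horizontal axis), for the 3 sickle and the 3 control arrays, with the number of genes measured in brackets. Sickle replicate 3 lies at 2.85 for the 3 major fibrillar chains, at 1.52 for non-collagen matrix and at 1.38 for macrophage markers, and sickle replicates 1 and 2 lie at or below 0.28 in every list drawn.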

How the data were processed

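The authors deposited log2 expression values of 6 arrays after RMA (background correction, quantile normalisation and probe summary), per the submitters' processing notes, which give no version. That the scale is log2 follows from the range of the values. The build and the settings of RMA: not given in the sources used here. Of 25293 rows, 22030 had 1 symbol in the platform annotation, 685 several and 2578 none. Of several rows of a gene (465 genes) the brightest was used, and dim genes were kept.

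The test was limma. Limma 3.58.1 in R 4.3.3 (lmFit, eBayes) was fitted over all 21506 genes with group as the only term, two-sided, with 4 residual and 3.61 prior degrees of freedom and Benjamini-Hochberg adjustment at 0.05. Differences are sickle minus control with moderated standard errors. List sums add the values after undoing the logarithm. The number of arrays limits the precision. The procedure was tested on simulated data.

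Values on each array are given for the 4 brightest genes of each class, genes called or without overlap at an unadjusted p under 0.05, and the 3 largest differences per class with and without sickle replicate 3. The array values of Col5a2, Col8a2 and Col6a6, and the differences of Col6a5 and Col18a1, were added after their values were seen. The 44 members, their classes and the lists were chosen with earlier results of these data known. Companion lists give members by smallest p. Promoter windows came from RefSeq on GRCm38.p6, and figures were drawn with matplotlib 3.10.9.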

Additional observations from a re-analysis of the deposited data

How the results depend on the processing

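No collagen gene passed an adjusted p of 0.05 under any of the 14 alternatives. These were limma with an intensity trend, dim genes left out (34 members remained), repeated quantile normalisation, centring on medians, weighted arrays, the replicate block, the mean over a gene's rows, each array left out in turn, and both replicates 3 left out, the last chosen after seeing the data. With 1 array left out the median of all members ran from 0.07 to 0.19, that of fibrillar genes from 0.07 to 0.21, that of basement membrane genes from 0.13 to 0.35, that of other genes from 0.05 to 0.10, and the count above 0 from 29 to 36. The replicate block called 0 members and 12 of all genes, against 39 without it, and the groups share only a replicate number: deviations of same-numbered arrays correlated at 0.11, -0.046 and 0.054 across genes.

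With 1 array or both replicates 3 left out, the difference ran from -0.044 to 1.86 for Col12a1, from -0.27 to 0.20 for Col16a1, from -0.14 to 0.35 for Col4a1, from -0.033 to 0.37 for Col4a2, from -0.054 to 0.17 for Col4a5, from -0.12 to 0.86 for Col5a1 and from -0.043 to 0.57 for Col6a2. Each of these 7 was above 0 over 6 arrays and below 0 without sickle replicate 3, and Col16a1 also without control replicate 3. Weighted arrays gave -0.15 for Col16a1 and -0.018 for Col4a1, and repeated quantile normalisation gave -0.028 for Col16a1. The cause was not tested. The other values of the 22 named genes (140 with arrays left out and 150 under other settings) kept their direction and none passed the threshold.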
